A study of Mus musculus with 12 samples.

Results

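The 9 genes described here encode parts of the Nodal and Activin pathway and were chosen by name: the ligand genes Nodal and Inhbb, the co-receptor gene Tdgf1, the receptor gene Acvr2b, the extracellular inhibitors Lefty1, Lefty2 and Fst, and the intracellular inhibitors Smad7 and Skil. The choice was made with earlier results of these data known. They are 9 of 46477 genes in the count table, and all 9 were among the 17369 genes with enough reads to be tested. RNA was sequenced from mouse embryonic stem cells (ESCs, naive cells) and from the post-implantation epiblast-like cells (EpiLCs, primed cells) made from them, to ask how loss of MTCH2, a protein of the outer mitochondrial membrane, affects the naive-to-primed conversion.

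The 12 libraries form 4 groups of 3. MTCH2-/- EpiLCs are MTCH2 F/F ESCs (both alleles floxed) that were treated with Cre recombinase and then cultured in Activin A and FGF2 (AF), without the MEK and GSK3 inhibitors (2i) and LIF. MTCH2 F/F EpiLCs had the same culture but no Cre, and the labels call them wild type. MTCH2-/- ESCs had Cre and stayed in 2i and LIF (2iL), and MTCH2 F/F ESCs had no Cre and stayed in 2iL. All groups share a C57BL/6 background and blastocyst (E3.5) origin, and the labels number the floxed cultures FF1, FF2 and FF3 in every group. No group analysed here received Cre without a floxed allele, so exposure to Cre and loss of MTCH2 cannot be told apart, and none was converted without Activin A in the medium. The libraries held 17453328 to 24068523 counts. Mtch2 itself averaged 1.88 ± 0.334 CPM in MTCH2-/- EpiLCs against 122 ± 0.572 CPM in MTCH2 F/F EpiLCs, and 1.86 ± 0.305 CPM in MTCH2-/- ESCs against 177 ± 5.41 CPM in MTCH2 F/F ESCs (mean ± SD, n = 3 libraries each). Levels are TMM-normalized CPM, the count of a gene scaled to a common library total.

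Nodal and the activins are secreted ligands of the TGF-beta family. They bind a complex of type I and type II receptors, Nodal also needing the co-receptor Cripto, and the receptors phosphorylate SMAD2 and SMAD3, which enter the nucleus with SMAD4 and act on genes together with partners such as FOXH1. The pathway is known for loops in which its targets include its own ligand and its own inhibitors, and for maintaining primed pluripotency and inducing mesendoderm in the epiblast.

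Promoter sequences of 4 of the 9 genes (Nodal, Inhbb, Tdgf1 and Acvr2b) were matched by symbol in RefSeq (GRCm38.p6), as 300 bases that run from 250 before the start of the gene to 50 after it. Those of Nodal, Inhbb and Tdgf1 are shown because Nodal and Inhbb had the largest genotype differences in EpiLCs among these 4 genes and Tdgf1 holds matches to motifs of both kinds of factor. The motifs searched on both strands were the SMAD box CAGAC, its palindrome GTCTAGAC (which contains no complete box of those letters), the GC-rich SMAD site GGCGCC, the FOXH1 core AATCCACA and its looser form AATNNACA (which includes the core), and capitals mark the matches. The Nodal window is chr10:61417722-61418021 on the plus strand, that of Inhbb chr1:119422199-119422498 on the minus strand and that of Tdgf1 chr9:110946109-110946408 on the minus strand.
Nodal: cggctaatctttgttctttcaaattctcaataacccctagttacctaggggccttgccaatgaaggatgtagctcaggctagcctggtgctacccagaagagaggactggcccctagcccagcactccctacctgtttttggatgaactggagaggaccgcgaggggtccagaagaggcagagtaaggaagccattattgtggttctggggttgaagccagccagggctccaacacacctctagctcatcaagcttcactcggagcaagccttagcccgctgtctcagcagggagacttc
Inhbb: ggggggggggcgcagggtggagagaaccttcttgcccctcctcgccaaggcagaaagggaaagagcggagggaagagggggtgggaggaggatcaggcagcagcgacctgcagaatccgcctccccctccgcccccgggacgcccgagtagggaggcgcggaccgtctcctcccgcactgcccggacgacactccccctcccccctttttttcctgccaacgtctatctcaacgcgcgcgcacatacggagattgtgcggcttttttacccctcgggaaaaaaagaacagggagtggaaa
Tdgf1: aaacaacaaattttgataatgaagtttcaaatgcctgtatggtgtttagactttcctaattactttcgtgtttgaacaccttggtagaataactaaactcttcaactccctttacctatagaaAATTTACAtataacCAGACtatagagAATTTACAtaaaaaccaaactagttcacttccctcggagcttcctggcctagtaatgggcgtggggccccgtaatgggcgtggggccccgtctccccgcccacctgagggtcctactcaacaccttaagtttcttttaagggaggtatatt
In the Tdgf1 window, 1 SMAD box starts at base 138, between 2 matches to the looser FOXH1 form that start at bases 124 and 150 (counted from 1 at the 5′ end of the window). The windows of Nodal and Inhbb held none of the 5 motifs, and that of Acvr2b held 1 SMAD box on the minus strand, at base 18. Of 32851 mouse promoters of this length, 49.6% held CAGAC, 0.213% GTCTAGAC, 11.9% GGCGCC, 0.855% AATCCACA and 12.2% AATNNACA. The windows differed in base composition, with 23 CpGs in that of Inhbb and 27 in that of Acvr2b, against 5 for Nodal, 7 for Tdgf1 and a median of 7 over all promoters.

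In response to the change of medium (priming), the genes that passed were partly the same in both genotypes, with the same direction. In MTCH2-/- cells, 5 of the 9 genes were higher in EpiLCs than in ESCs at an adjusted p under 0.05 (Lefty1, Lefty2, Smad7, Skil and Tdgf1), 1 was lower (Nodal) and 3 did not pass. Of all genes tested, 42.2% passed (20.0% higher and 22.2% lower), and the libraries of EpiLCs and ESCs did not overlap for 6 of the 9 genes and 48.2% of all genes. In MTCH2 F/F cells, 4 were higher (Lefty1, Skil, Acvr2b and Smad7), 3 were lower (Inhbb, Nodal and Fst) and 2 did not pass, with 64.0% of all genes passing (31.9% higher and 32.1% lower). Here 8 of the 9 genes and 71.5% of all genes did not overlap. The difference between these responses (MTCH2-/- minus MTCH2 F/F) was itself past the threshold for 7 genes, 5 of them more positive in MTCH2-/- cells (Inhbb, Lefty2, Nodal, Smad7 and Tdgf1) and 2 more negative (Skil and Acvr2b), against 35.0% of all genes (17.8% more positive and 17.2% more negative). The median size of that difference was 0.78 on the log2 scale over the 9 genes and 0.36 over all genes tested. Because the genes were chosen with earlier results of these data known, this contrast cannot test whether they are unusual as a set.

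Between the genotypes in EpiLCs, 4 genes were higher in MTCH2-/- cells (Inhbb, Lefty2, Nodal and Smad7), 2 were lower (Skil and Acvr2b) and 3 did not pass, against 62.5% of all genes that passed (32.3% higher and 30.2% lower), and 7 of the 9 genes did not overlap between the genotypes, against 67.0% of all genes. The median size was 0.88 over the 9 genes and 0.45 over all genes (log2), with the same limit from how the genes were chosen. With at least a 2-fold change as well, the count was 3 higher (Inhbb, Lefty2 and Nodal) and 1 lower (Skil), against 21.0% of all genes. In ESCs, 3 genes were lower in MTCH2-/- cells (Tdgf1, Skil and Smad7), none was higher and 6 did not pass, against 43.7% of all genes (23.3% higher and 20.4% lower), and none of the 9 both passed and changed 2-fold. With the replicate number as a block, or with DESeq2, 5 of the 9 passed in ESCs. The calls added were Lefty2, lower by more than 2-fold (log2 −1.28 with the block, −1.27 with DESeq2), and Inhbb, higher (0.68 and 0.67). The genotypes did not overlap for 3 of the 9 genes and 54.7% of all genes. In these comparisons many genes of all kinds passed, so that the counts by themselves say little about the 9 genes, and each gene's own values are given next. The genotype comparison in EpiLCs and the priming comparison in MTCH2 F/F cells share the MTCH2 F/F EpiLC libraries, so that their values are not independent.

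Whole cultures were measured, so fewer cells of a type and less RNA per cell cannot be told apart. The summed level of 9 naive pluripotency markers was 2211 to 2285 CPM in MTCH2-/- EpiLCs against 329 to 613 CPM in MTCH2 F/F EpiLCs, with 8 of the 9 higher and 1 lower (Dppa3, at means of 1.01 and 2.13 CPM). That of 5 formative and primed markers was 403 to 526 CPM in MTCH2-/- EpiLCs against 1862 to 2340 CPM in MTCH2 F/F EpiLCs, with 5 of 5 lower. Of all genes tested, 32.3% were higher and 30.2% lower in this comparison, which also holds for the EpiLC marker counts below. For the ESC marker counts, the shares of all genes were 23.3% higher and 20.4% lower. The naive, formative and primed markers differed in the same comparison as the genotype differences in EpiLCs given here, and their part in those differences was not tested. Of the other cell types, 8 primitive endoderm markers summed to 32.5 to 37.2 CPM in MTCH2-/- EpiLCs and 14.0 to 15.8 CPM in MTCH2 F/F EpiLCs, with 6 of 8 higher and 1 lower. Fibroblast markers, which could come from the feeder cells of the maintenance culture, summed to 25.8 to 36.9 CPM in MTCH2-/- EpiLCs and 28.8 to 31.3 CPM in MTCH2 F/F EpiLCs (4 of 7 tested higher, 2 lower), and trophoblast markers to 48.4 to 59.4 CPM and 39.4 to 51.9 CPM (3 of 5 tested higher, 1 lower). In ESCs the naive markers summed to 4341 to 4877 CPM in MTCH2-/- cells and 5207 to 5679 CPM in MTCH2 F/F cells (0 higher, 2 lower). The primitive endoderm markers summed to 21.9 to 28.8 CPM and 16.6 to 17.2 CPM (4 higher, 1 lower). Fibroblast markers summed to 29.6 to 46.6 CPM and 26 to 36.4 CPM (6 of 7 tested higher, 0 lower). Among these, Pdgfrb alone had a lower mean in MTCH2-/- ESCs (13.7 against 17.8 CPM). The trophoblast markers in ESCs summed to 150.5 to 178.5 CPM in MTCH2-/- cells and 126.5 to 145.7 CPM in MTCH2 F/F cells (2 of 5 tested higher, 1 lower). Krt8 (47.6 against 9.77 CPM) and Krt18 (31.3 against 7.5 CPM) had higher means in MTCH2-/- ESCs, whereas Cdx2, Tfap2c, Elf5 and Gata3 had lower means. For 3 general pluripotency markers the sums were 1331.4 to 1556.7 CPM in MTCH2-/- EpiLCs and 1399.5 to 1500.6 CPM in MTCH2 F/F EpiLCs (1 higher, 1 lower). In ESCs they were 1221.5 to 1538 CPM in MTCH2-/- cells and 1709.4 to 1812.2 CPM in MTCH2 F/F cells (0 higher, 2 lower). The part of these markers in the ESC differences was not tested. None of these markers was at 0 in every library, and Lum (fibroblast) and Elf5 (trophoblast) were below 1 CPM in all of them.

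**Figure D1:**
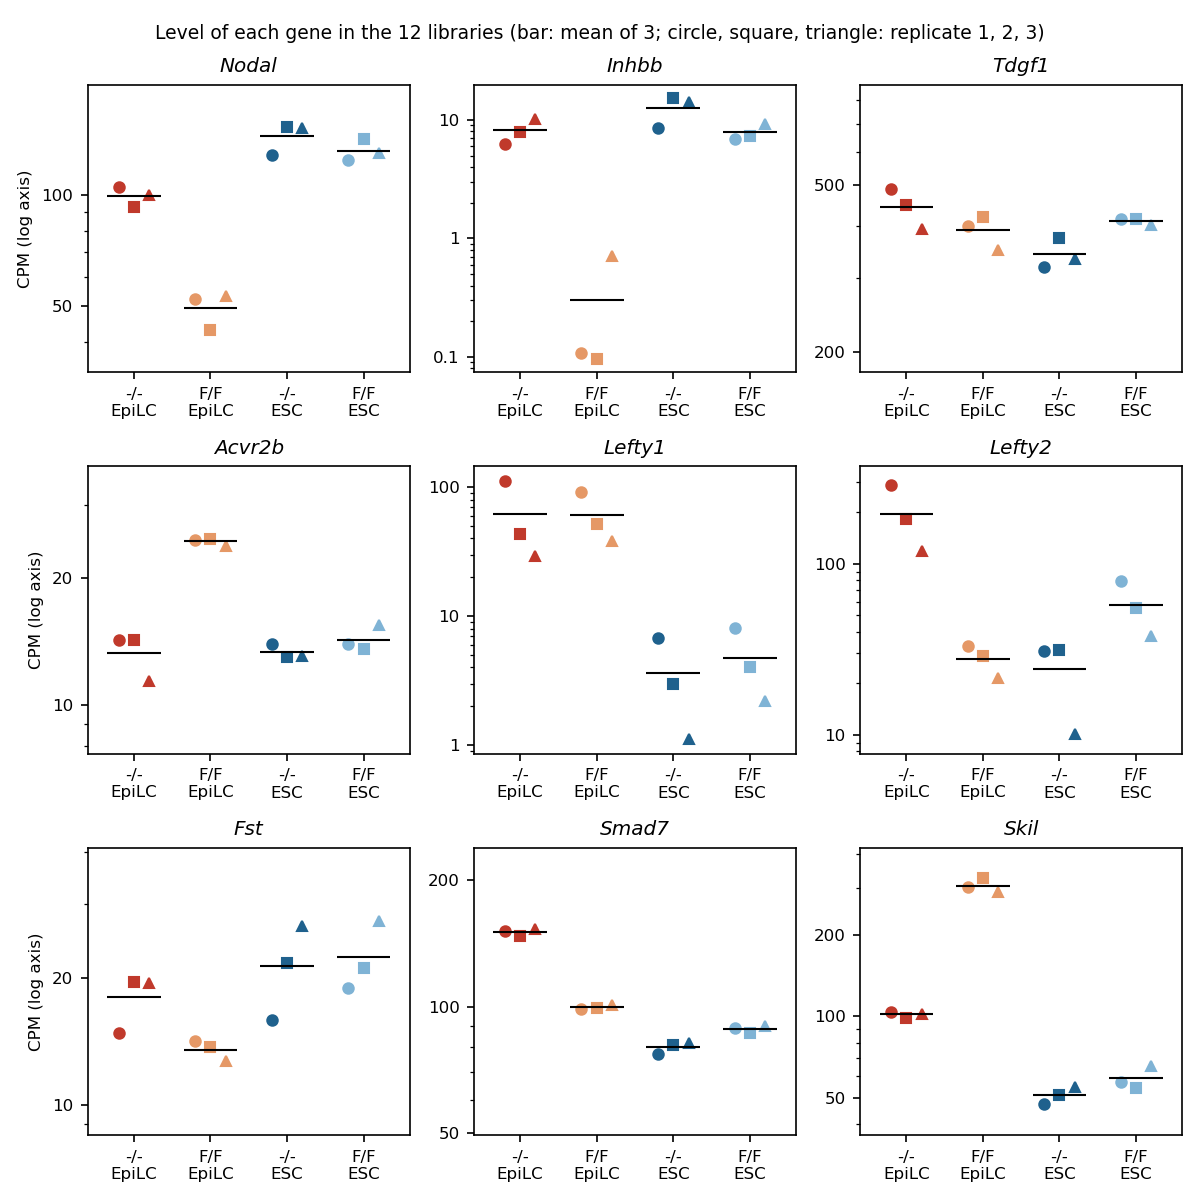
Level of each gene in CPM (log axis) in the 12 libraries, by group, with circles, squares and triangles for replicates 1, 2 and 3 and a bar for the mean of 3. Lefty2 and Smad7 are higher in the 3 MTCH2-/- EpiLC libraries than in any other library, Inhbb is at 0.097 to 0.704 CPM only in MTCH2 F/F EpiLCs, and Skil and Acvr2b are highest in MTCH2 F/F EpiLCs.

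Nodal (chr10:61417972-61425338, plus strand) encodes a ligand of the pathway that the epiblast itself makes. Its level was 105, 92.8 and 99.9 CPM in MTCH2-/- EpiLCs, 52.4, 43.2 and 53.3 CPM in MTCH2 F/F EpiLCs, 128, 153 and 152 CPM in MTCH2-/- ESCs and 124, 141 and 130 CPM in MTCH2 F/F ESCs (replicates 1, 2 and 3). Nodal was thus lower in EpiLCs than in ESCs of either genotype with no overlap, and the EpiLC groups did not overlap each other. On priming it fell by 0.54 on the log2 scale in MTCH2-/- cells (SE 0.088, adjusted p = 0.000134) and fell by 1.41 in MTCH2 F/F cells (SE 0.091, adjusted p = 1.38e-09). The level in EpiLCs was 2.0-fold higher in MTCH2-/- cells (log2 1.0, SE 0.091, adjusted p = 1.76e-07), and the responses differed by 0.87 (SE 0.13, adjusted p = 6.9e-05). In ESCs the genotypes overlapped (log2 0.13, adjusted p = 0.237).

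Inhbb (chr1:119415465-119422248, minus strand) encodes the beta B subunit, which forms activin B as a dimer with itself and inhibin B with the inhibin alpha subunit. It had 6.28, 7.92 and 10.2 CPM in MTCH2-/- EpiLCs (504 counts in all) against 0.109, 0.097 and 0.704 CPM in MTCH2 F/F EpiLCs, where the libraries held 2, 2 and 12 counts. In ESCs the level was 8.59, 15.3 and 14.1 CPM in MTCH2-/- cells and 6.9, 7.37 and 9.21 CPM in MTCH2 F/F cells. MTCH2 F/F EpiLCs were therefore the one group in which the gene was close to undetected, and the other 3 groups overlapped. On priming of MTCH2 F/F cells Inhbb fell by 4.74 on the log2 scale (SE 0.46, adjusted p = 6.47e-07). In MTCH2-/- cells the log2 change was −0.63 (SE 0.27, adjusted p = 0.0771), and with the replicate number as a block the same size passed (adjusted p = 0.00572).

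The genotypes differed in EpiLCs by 4.79 (log2, SE 0.46, adjusted p = 9.54e-07) and in their response by 4.11 (SE 0.56, adjusted p = 9.07e-05). These sizes rest on 16 counts in MTCH2 F/F EpiLCs, 12 of them in replicate 3. Without that library the values were 6.21 for the genotypes in EpiLCs, 5.55 for the difference in response and −6.17 for priming of MTCH2 F/F cells. In ESCs, the log2 difference between MTCH2-/- and MTCH2 F/F cells was 0.69 (adjusted p = 0.0554), which passed with the block (0.68, adjusted p = 0.00368). It also passed with DESeq2 (adjusted p = 0.03), with only the compared groups (0.0218) and with a filter on the mean level of 1 CPM (0.0492). Inhba, which encodes the subunit of the Activin A that the AF medium supplies as a protein, had too few reads to be tested.

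Tdgf1 (chr9:110939603-110946158, minus strand) encodes Cripto, the co-receptor that Nodal needs. It had the highest level per length of the 9 genes in every group, with means of 169 CPM per kb of exon in MTCH2-/- EpiLCs and 149 CPM per kb in MTCH2 F/F EpiLCs, and of 131 and 157 CPM per kb in MTCH2-/- and MTCH2 F/F ESCs. Its level was 489, 450 and 393 CPM in MTCH2-/- EpiLCs, 400.1, 421 and 350.2 CPM in MTCH2 F/F EpiLCs, 319, 375 and 334 CPM in MTCH2-/- ESCs and 416, 416 and 403 CPM in MTCH2 F/F ESCs. The ESC groups did not overlap, whereas the EpiLC groups did. Tdgf1 rose by 0.37 (log2) on priming of MTCH2-/- cells (SE 0.085, adjusted p = 0.00236), while the change was −0.08 in MTCH2 F/F cells (adjusted p = 0.45), and the responses differed by 0.45 (SE 0.12, adjusted p = 0.00887). In ESCs it was lower in MTCH2-/- cells (log2 −0.26, adjusted p = 0.0206), a call that was lost without replicate 1 (adjusted p = 0.0838) or replicate 3 (adjusted p = 0.0646) of the MTCH2-/- ESCs. In EpiLCs the difference was 0.19 (adjusted p = 0.0699, and 0.0189 with the block). The pseudogene Tdgf1-ps1 averaged 81.5, 75.3, 60.7 and 75.8 CPM in the 4 groups in the same order, and 45.37% of its 60-base windows, the length of a read, are also in Tdgf1. No call changed when both were summed.

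Acvr2b (chr9:119402118-119434995, plus strand) encodes a type II receptor that binds activins and Nodal. It had 14.3, 14.3 and 11.4 CPM in MTCH2-/- EpiLCs, 24.7, 24.9 and 23.9 CPM in MTCH2 F/F EpiLCs, 14.0, 13.0 and 13.1 CPM in MTCH2-/- ESCs and 14.0, 13.6 and 15.5 CPM in MTCH2 F/F ESCs. Only the MTCH2 F/F EpiLCs stood apart, with no library of the other 3 groups above 15.5 CPM. Acvr2b rose by 0.77 (log2) on priming of MTCH2 F/F cells (SE 0.1, adjusted p = 4.89e-06), while the change in MTCH2-/- cells was −0.01 (adjusted p = 0.967, approximate 95% interval −0.21 to 0.20). It was 0.88 lower in MTCH2-/- EpiLCs than in MTCH2 F/F EpiLCs (log2 −0.88, adjusted p = 1.96e-06), and the responses differed by −0.78 (SE 0.14, adjusted p = 0.00059). A predicted gene on the other strand, Gm47320, overlaps it, and so does Gm47040 for Fst. The kit does not mark strand, so reads of such pairs could not be separated.

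Lefty1 (chr1:180935022-180938400) and Lefty2 (chr1:180893108-180899103), neighbours on the plus strand, encode secreted antagonists of Nodal that are themselves known targets of the pathway. Lefty1 had 112, 43.0 and 29.0 CPM in MTCH2-/- EpiLCs, 92.1, 51.8 and 38.5 CPM in MTCH2 F/F EpiLCs, 6.73, 2.98 and 1.12 CPM in MTCH2-/- ESCs and 8.04, 4.05 and 2.18 CPM in MTCH2 F/F ESCs. The EpiLC groups lay above both ESC groups, and the genotypes overlapped in either medium. Priming raised it by 4.03 (log2, SE 0.78, adjusted p = 0.00338) in MTCH2-/- cells and by 3.68 (SE 0.77, adjusted p = 0.00273) in MTCH2 F/F cells. In MTCH2-/- cells that value was 4.87 without replicate 1 of the ESCs and 3.25 without replicate 1 of the EpiLCs, and in MTCH2 F/F cells it was 4.28 without replicate 1 of the ESCs. The difference between the responses was 0.35 (SE 1.11, adjusted p = 0.84), and with the replicate block it was 0.29 with a smaller error (SE 0.253, adjusted p = 0.388). In EpiLCs the genotype difference was 0.02 (SE 0.62, adjusted p = 0.985), and −0.11 with the block (SE 0.126, adjusted p = 0.451).

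Lefty2 took another course. It had 287, 182 and 119 CPM in MTCH2-/- EpiLCs, 32.9, 29.0 and 21.5 CPM in MTCH2 F/F EpiLCs, 30.8, 31.4 and 10.1 CPM in MTCH2-/- ESCs and 79.4, 54.8 and 37.8 CPM in MTCH2 F/F ESCs. Every MTCH2-/- EpiLC library was above every other library, and in ESCs the order of the genotypes was the opposite, with MTCH2-/- below MTCH2 F/F and no overlap. Lefty2 rose by 3.01 on priming of MTCH2-/- cells (log2, SE 0.5, adjusted p = 0.00139). In MTCH2 F/F cells the change was −1.04 (SE 0.49, adjusted p = 0.0954), which passed with the block (−1.01, adjusted p = 0.00224). The genotypes differed in EpiLCs by 2.82 (SE 0.5, adjusted p = 0.00113), a 7.04-fold higher level in MTCH2-/- cells, and the responses differed by 4.05 (SE 0.7, adjusted p = 0.00229). In ESCs the difference was −1.24 (adjusted p = 0.0737), past the threshold with the block (−1.28, adjusted p = 0.00105) and with DESeq2 (−1.27, adjusted p = 0.0278).

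Both Lefty genes varied more within groups than the other genes, apart from Inhbb in MTCH2 F/F EpiLCs, and they did so by replicate number. Replicate 1 had the highest and replicate 3 the lowest Lefty1 level in 4 of 4 groups, with ratios of 2.39 to 5.98 between them, and replicate 3 had the lowest Lefty2 level in 4 of 4 groups. Within each number, Lefty1 rose on priming by 3.87, 3.47 and 3.82 on the scale of log2(CPM + 1) in MTCH2-/- cells. In MTCH2 F/F cells it rose by 3.36, 3.39 and 3.64. The added 1 shrinks such changes most where the level is lowest, which draws these values together. Lefty1 was at 1.12 to 8.04 CPM in the ESC libraries.

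The 2 genes share sequence over lengths of a read (60 bases). Of the 60-base windows of Lefty1, 15.14% were also in Lefty2, and of those of Lefty2, 10.08% were also in Lefty1. No source used here says how reads from such windows were assigned. Lefty1 made up 28.1%, 19.1% and 19.6% of the counts of both genes in MTCH2-/- EpiLCs and 73.7%, 64.1% and 64.2% in MTCH2 F/F EpiLCs, against 17.9%, 8.67% and 10.0% in MTCH2-/- ESCs and 9.19%, 6.88% and 5.45% in MTCH2 F/F ESCs. Lefty1 was thus the more abundant of the pair only in MTCH2 F/F EpiLCs, also per length of exon (34.6 against 10.7 CPM per kb, whereas Lefty1 had 34.9 and Lefty2 75.1 CPM per kb in MTCH2-/- EpiLCs). The mean share differed by −45.1 percentage points between the genotypes in EpiLCs, and by 5.04 in ESCs, where the libraries overlapped. On priming it was 10.1 percentage points higher in MTCH2-/- cells and 60.1 higher in MTCH2 F/F cells, the MTCH2-/- groups and the MTCH2 F/F groups each not overlapping. The exact two-sided permutation test gave p = 0.1 for 3 of these 4 comparisons, the smallest that 3 libraries against 3 allow (0.133 after adjustment over the 4), and p = 0.2 for ESCs. With both genes summed, the count rose on priming of MTCH2-/- cells (log2 3.20, adjusted p = 0.00223), while the change in MTCH2 F/F cells was 0.51 (adjusted p = 0.432), and the responses differed by 2.69 (adjusted p = 0.0271).

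**Figure D2:**
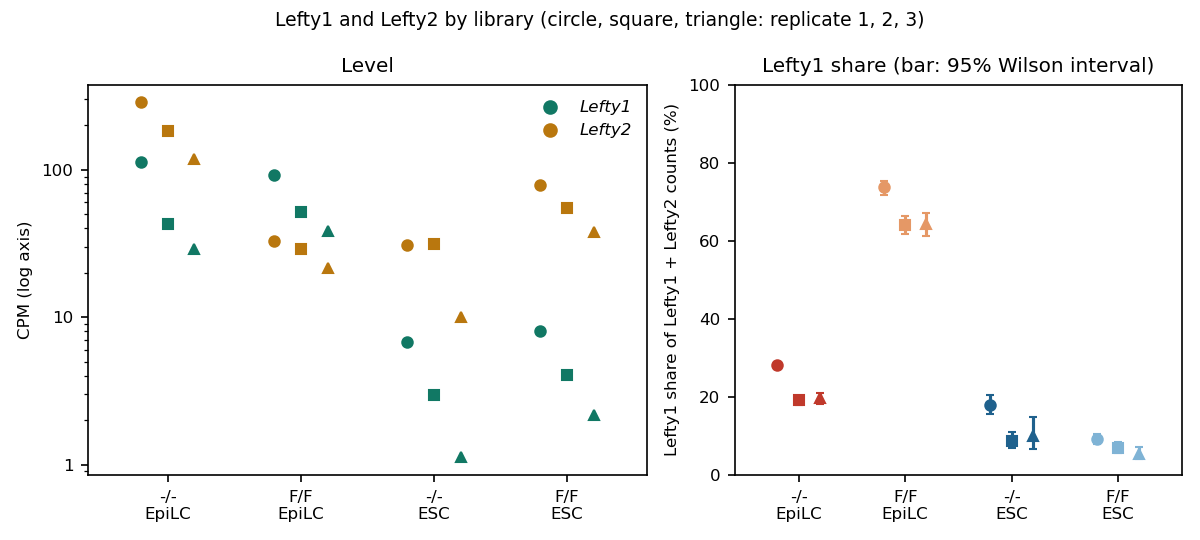
Left, Lefty1 and Lefty2 level in CPM (log axis) in each library, and right, the share of Lefty1 in the counts of both genes in percent, with its 95% Wilson interval (counting error only); circles, squares and triangles are replicates 1, 2 and 3. Lefty1 holds 64.1% to 73.7% of the counts in MTCH2 F/F EpiLCs and at most 28.1% in any other library.

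Fst (chr13:114452290-114458951, minus strand) encodes follistatin, a secreted protein that binds and neutralizes activins. It had 14.8, 19.6 and 19.5 CPM in MTCH2-/- EpiLCs, 14.2, 13.7 and 12.7 CPM in MTCH2 F/F EpiLCs, 15.9, 21.7 and 26.6 CPM in MTCH2-/- ESCs and 19.0, 21.1 and 27.3 CPM in MTCH2 F/F ESCs. The EpiLC groups did not overlap, but the nearest libraries were 14.8 and 14.2 CPM. Fst fell by 0.73 (log2) on priming of MTCH2 F/F cells (SE 0.18, adjusted p = 0.00253), and the change was −0.25 in MTCH2-/- cells (adjusted p = 0.281). The genotype difference in EpiLCs was 0.41 (adjusted p = 0.0643, and 0.0161 with the block) and the difference in response 0.48 (adjusted p = 0.154, and 0.0463 with the block).

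Smad7 (chr18:75367529-75395935, plus strand) encodes an inhibitory SMAD that acts at the type I receptor and is induced by the signal it inhibits. The libraries of a group lay close together, at 151, 147 and 154 CPM in MTCH2-/- EpiLCs, 99.0, 99.2 and 101 CPM in MTCH2 F/F EpiLCs, 77.2, 80.9 and 82 CPM in MTCH2-/- ESCs and 89.2, 86.5 and 89.9 CPM in MTCH2 F/F ESCs. No group overlapped another, and the order of the genotypes in ESCs was the opposite of that in EpiLCs. Smad7 rose on priming by 0.91 (log2, SE 0.053, adjusted p = 2.58e-09) in MTCH2-/- cells and by 0.17 (SE 0.053, adjusted p = 0.00984) in MTCH2 F/F cells, the second call being lost without replicate 2 of the MTCH2 F/F ESCs (0.15, adjusted p = 0.0572). It was 1.51-fold higher in MTCH2-/- EpiLCs (log2 0.60, SE 0.052, adjusted p = 1.26e-07), and the responses differed by 0.74 (SE 0.075, adjusted p = 2.19e-06). In ESCs it was lower in MTCH2-/- cells (log2 −0.15, adjusted p = 0.0352), and that call was lost on leaving out any one of replicates 1 and 2 of the MTCH2-/- ESCs and replicates 1 and 3 of the MTCH2 F/F ESCs (adjusted p = 0.0525 to 0.122).

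Skil (chr3:31095058-31122577, plus strand) encodes SnoN, which represses genes by binding SMADs and whose own gene is a known early target of the pathway. It moved the other way from Smad7 between the genotypes in EpiLCs. Its level was 104, 98.6 and 103 CPM in MTCH2-/- EpiLCs, 301, 326 and 290.5 CPM in MTCH2 F/F EpiLCs, 47.2, 51.3 and 54.8 CPM in MTCH2-/- ESCs and 56.9, 54.3 and 65.6 CPM in MTCH2 F/F ESCs. Both EpiLC groups lay above all ESC libraries and well apart from each other, and the ESC groups overlapped. Priming raised Skil by 1.0 (log2, SE 0.078, adjusted p = 6.23e-08) in MTCH2-/- cells and by 2.38 (SE 0.079, adjusted p = 6.87e-13) in MTCH2 F/F cells. In EpiLCs it was 1.59 lower in MTCH2-/- cells (log2 −1.59, SE 0.076, adjusted p = 2.32e-10), or 3.01-fold lower, and the responses differed by −1.38 (SE 0.11, adjusted p = 2.15e-07). The ESC difference was −0.21 (adjusted p = 0.0424), and that call was lost without replicate 1 or 2 of the MTCH2-/- ESCs, replicate 3 of the MTCH2 F/F ESCs or replicate 3 of the MTCH2-/- EpiLCs (adjusted p = 0.0527 to 0.174).

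**Figure D3:**
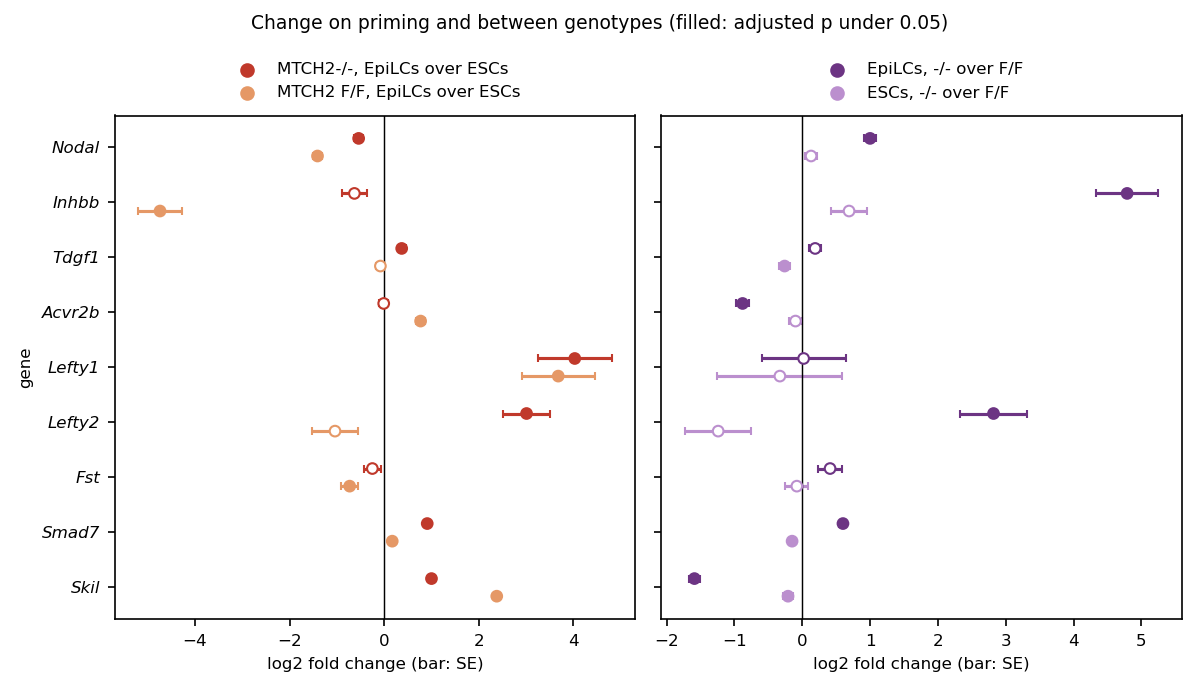
Log2 fold change of each gene with its standard error, left for EpiLCs over ESCs within each genotype and right for MTCH2-/- over MTCH2 F/F within each medium, with filled points at an adjusted p under 0.05. Inhbb (4.79) and Lefty2 (2.82) have the largest positive and Skil (−1.59) the largest negative genotype difference in EpiLCs, while Lefty1 changes on priming in both genotypes.

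The level in MTCH2-/- EpiLCs did not always lie between those of MTCH2 F/F EpiLCs and MTCH2 F/F ESCs. For Lefty2 and Smad7, every MTCH2-/- EpiLC library was above all 6 MTCH2 F/F libraries, a pattern found in 16.3% of all genes tested. None of the 9 genes was below all 6, as 13.9% of all genes were. None passed the threshold on priming in both genotypes in opposite directions, which 1.51% of all genes did. By level per length, Tdgf1 was first in all 4 groups. It was followed by Lefty2 (75.1 CPM per kb) and Nodal (47.4) in MTCH2-/- EpiLCs and by Lefty1 (34.6), Skil (31.6), Nodal (23.7) and Smad7 (22.0) in MTCH2 F/F EpiLCs. Among the naive groups, Nodal (68.9) and Smad7 (17.7) came next in MTCH2-/- ESCs, and Nodal (62.9), Lefty2 (22.0) and Smad7 (19.6) in MTCH2 F/F ESCs. Lefty2 and Nodal in MTCH2-/- EpiLCs overlapped between libraries on this scale, as did Lefty1 and Skil, and Nodal and Smad7, in MTCH2 F/F EpiLCs and Lefty2 and Smad7 in MTCH2 F/F ESCs. Inhbb was last in 3 of the 4 groups, the exception being MTCH2-/- ESCs, where Lefty1 (2.05 CPM per kb) was below Inhbb (2.98), and the libraries of both genes overlapped in MTCH2-/- and in MTCH2 F/F ESCs.

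A wider list of 56 genes, which includes the 9, was taken to see how far other parts of the pathway moved. It also holds ligand and receptor genes of TGF-beta itself (Tgfb1, Tgfb2, Tgfb3, Tgfbr1, Tgfbr2 and Tgfbr3). Of its 47 other genes, 38 were tested, and 20 of them were higher and 10 lower in MTCH2-/- EpiLCs than in MTCH2 F/F EpiLCs, with a median of 0.27 (log2) against 0.022 over all genes, of which 32.3% were higher and 30.2% lower. In ESCs, 11 of the 38 were higher and 5 lower in MTCH2-/- cells, against 23.3% and 20.4% of all genes. On priming, 12 were higher and 9 lower in MTCH2-/- EpiLCs than in their ESCs, against 20.0% and 22.2% of all genes. In MTCH2 F/F cells 14 were higher and 16 lower, against 31.9% and 32.1% of all genes. The responses differed for 22 of the 38 (14 more positive and 8 more negative in MTCH2-/- cells), against 35.0% of all genes. The list too was chosen with earlier results of these data known, so these shares do not test it as a set. The genes not tested, for few reads, were Gdf1, Inhba, Mstn, Tgfb3, Cfc1, Acvr1c, Cer1, Foxa2 and Fgf8.

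Among the other ligands, Tgfb2 averaged 5.38 CPM in MTCH2-/- EpiLCs against 0.511 CPM in MTCH2 F/F EpiLCs (log2 3.40, adjusted p = 3.87e-08), and 5.45 CPM in MTCH2-/- ESCs against 1.5 CPM in MTCH2 F/F ESCs (1.86, adjusted p = 9.47e-06). Inhbe, which encodes the activin beta E subunit, was higher in MTCH2-/- cells in both media, by 1.59 in EpiLCs (adjusted p = 4.79e-05) and by 1.45 in ESCs (adjusted p = 0.000594). Gdf11, which encodes a ligand that uses activin receptors, was lower in both (−1.25 in EpiLCs, adjusted p = 2.15e-05, and −0.53 in ESCs, adjusted p = 0.0284). Pcsk6, which encodes PACE4, a convertase that can cleave the Nodal precursor, averaged 79.1 CPM in MTCH2-/- EpiLCs against 29.5 CPM in MTCH2 F/F EpiLCs (1.42, adjusted p = 1.83e-08), and 247 CPM in MTCH2-/- ESCs against 249 CPM in MTCH2 F/F ESCs. As for Nodal, priming lowered it in both genotypes, and its response differed by 1.43 (adjusted p = 1.72e-06).

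Of the 6 receptor genes tested, 5 were higher in MTCH2-/- EpiLCs and Acvr2b alone was lower, where 32.3% of all genes were higher and 30.2% lower. The 5 include Tgfbr1, Tgfbr2 and Tgfbr3, which encode receptors for TGF-beta. Among the activin receptor genes, Acvr1b (log2 0.63) and Acvr2a (log2 0.35) were higher and Acvr2b was lower. Tgfbr2, which encodes the type II receptor for TGF-beta, averaged 7.37 CPM in MTCH2-/- EpiLCs against 1.61 CPM in MTCH2 F/F EpiLCs (2.19, adjusted p = 9.1e-07) and was also higher in MTCH2-/- ESCs (1.15, adjusted p = 0.000264). The co-receptor gene Tgfbr3 was higher by 1.33 in EpiLCs (adjusted p = 4.49e-06) and by 1.01 in ESCs (adjusted p = 8.39e-05). Fstl3, which encodes a follistatin-like activin antagonist, was lower in MTCH2-/- EpiLCs (−2.02, adjusted p = 0.00176) at 0.171 CPM against 0.738 CPM in MTCH2 F/F EpiLCs. The MTCH2-/- EpiLC libraries held only 6, 1 and 4 counts of Fstl3.

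Smad3, which encodes a signal transducer of the pathway, changed on priming in opposite directions, falling by 0.56 in MTCH2-/- cells (adjusted p = 1.23e-05) and rising by 0.51 in MTCH2 F/F cells (adjusted p = 1.02e-05), with a difference of −1.08 (adjusted p = 1.13e-06). The 11 intracellular inhibitors divided evenly in EpiLCs, with 5 higher (Smad7 among them), 5 lower (Skil among them) and 1 not passed, as all genes did (32.3% higher and 30.2% lower). Tgif2, a SMAD co-repressor gene, was lower in MTCH2-/- cells by 1.04 in EpiLCs (log2 −1.04, adjusted p = 6.07e-06) and by 0.44 in ESCs (log2 −0.44, adjusted p = 0.0199).

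Among mesendoderm genes, Eomes averaged 12.7 CPM in MTCH2-/- EpiLCs against 4.69 CPM in MTCH2 F/F EpiLCs (1.43, adjusted p = 1.91e-07). Wnt3, a ligand gene of early gastrulation, averaged 7.39 CPM against 1.45 CPM in the same groups (2.35, adjusted p = 7.42e-07) and 8.56 CPM in MTCH2-/- ESCs against 0.411 CPM in MTCH2 F/F ESCs (4.36, adjusted p = 3.91e-08). Lhx1 was higher in MTCH2-/- EpiLCs (2.06, adjusted p = 0.000699) and ESCs (3.99, adjusted p = 4.81e-05), at a mean of no more than 1.20 CPM in any group. The MTCH2 F/F ESC libraries held only 1, 3 and 0 counts of Lhx1, so the size of 3.99 is uncertain. The gene T, also known as Brachyury, was lower in MTCH2-/- ESCs (−2.02, adjusted p = 0.00063) and Mixl1 in MTCH2-/- EpiLCs (−1.25, adjusted p = 0.0217), with group means of 0.192 to 1.99 CPM and 0.276 to 0.656 CPM.

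**Figure D4:**
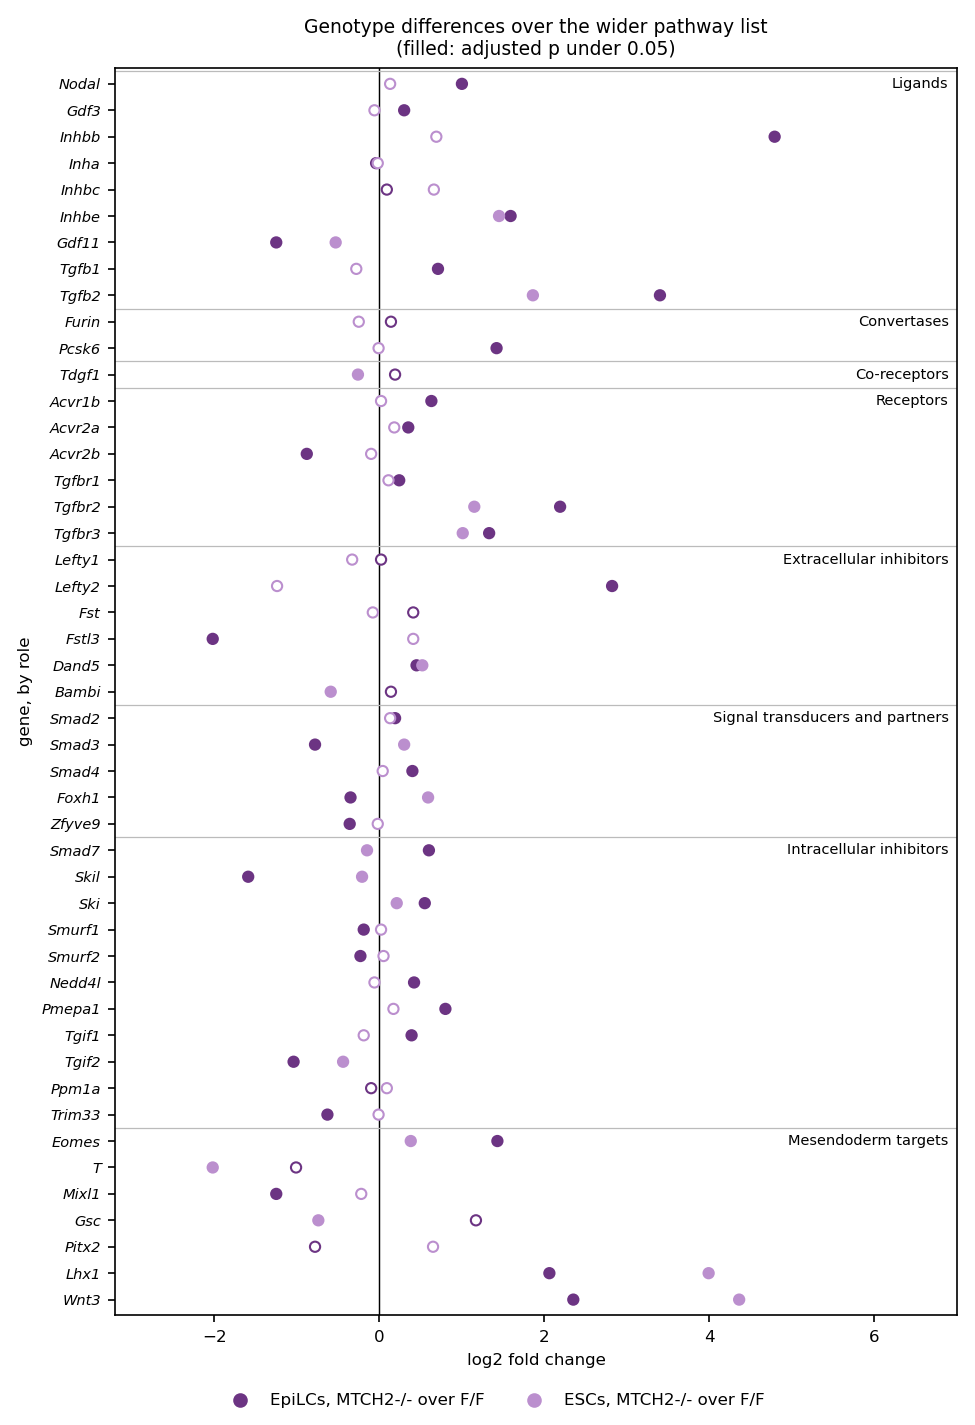
Log2 fold change of MTCH2-/- over MTCH2 F/F in EpiLCs (dark) and ESCs (light) for the 47 tested genes of the wider list, ordered by role, with filled points at an adjusted p under 0.05. Inhbb (4.79) and Tgfb2 (3.40) are the largest positive values in EpiLCs, Wnt3 (4.36) and Lhx1 (3.99) in ESCs, and Fstl3 (−2.02) is the most negative in EpiLCs. The values of Inhbb, Lhx1 and Fstl3 rest on few counts in the lower group.

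The genes whose pattern over the 12 libraries was nearest to each of the 9 were found among 10692 genes by the root mean squared distance of centred log2(CPM + 1) values, as a description. Nearest to Nodal were Brwd1 (0.102), Hes1 (0.105) and Pbxip1 (0.105), and to Smad7 D1Pas1 (0.094), Epha2 (0.0987) and Pde4d (0.117). Those to Skil were Sept6 (0.167), Adk (0.172) and Sox12 (0.175), those to Inhbb Emp2 (0.267), Hoxc13 (0.277) and Ripk3 (0.281), and those to Acvr2b Aptx (0.0807), Fance (0.0931) and Pcca (0.095). Fst was nearest to Jam3 (0.133), Med19 (0.139) and Pigk (0.143), and Tdgf1 to its pseudogene Tdgf1-ps1 (0.072), Cnep1r1 (0.099) and Urb2 (0.103). These distances are not scaled by the size of a gene's own pattern (root mean square), which was 0.167 for Tdgf1, 0.331 for Fst, 0.345 for Smad7, 1.29 for Lefty2 and 1.93 for Lefty1. The distance was 0.518 for Slc27a2, 0.724 for Dusp4 and 0.748 for Dnmt3l from Lefty1, and 0.771 for Liph, 0.798 for Nphs1 and 0.857 for Kirrel2 from Lefty2.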

How the data were processed

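RNA from 12 cultures (TruSeq RNA v2, poly-A selected, single-end reads of 60 bases) was mapped by the authors to GRCm38 with TopHat 2.0.10, and reads per gene were counted with HTSeq 0.6.1p1, with a strand setting not given in the sources used here. The deposited counts are whole numbers with no normalization. The deposited normalized signal (counts divided by DESeq2 size factors) and the authors' own comparisons (log2 fold changes and adjusted p-values) were not used.

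Counts were analysed with edgeR 4.0.16 in R 4.3.3. Genes passing the filter on low counts (17369 of 46477) were scaled by TMM, the 4 groups were fitted together without a replicate term, and contrasts were taken from its quasi-likelihood F test (robust option), Benjamini-Hochberg adjusted over all genes tested, at a threshold of 0.05. Directions of log2 fold changes are EpiLCs over ESCs and MTCH2-/- over MTCH2 F/F, and standard errors are the size of the change over the square root of F. The method was first run on counts simulated for the same groups. Those counts had no effect of the replicate number, so that run does not test the method on paired libraries. With 3 libraries per group, changes are judged against the spread between cultures. Without a replicate term, that spread includes the differences between replicate numbers.

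The replicate numbers pair the libraries. Deviations from the group mean correlated across genes for each of the 12 same-numbered pairs between compared groups (0.147 to 0.574), so a fit with the number as a block was run as an alternative. Other alternatives were DESeq2 (1.42.0), its size factors, other filters, fits of only the compared groups, sums with a near copy, and leaving out each library. The sum of Tdgf1 with its pseudogene and a filter on the mean level (1 CPM) were added after seeing the data. Named genes are the 9 genes, the members of the wider list that passed with at least a 2-fold change in a genotype contrast or in the difference, and the 3 nearest genes to each (mean of at least 5 CPM, no predicted gene). A few further genes are named where a list is described. The genes and lists were chosen with earlier results of these data known. Positions and exon lengths are from GENCODE vM21 (GRCm38), which is not the annotation used for counting.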

Additional observations from a re-analysis of the deposited data

Results flagged for a closer look

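For 7 of the 9 genes the response to priming differed between the genotypes by a test of the difference itself (MTCH2-/- minus MTCH2 F/F, log2, adjusted p under 0.05), against 35.0% of all genes tested. The difference was 4.11 for Inhbb, 4.05 for Lefty2, 0.87 for Nodal, 0.74 for Smad7, 0.45 for Tdgf1, −0.78 for Acvr2b and −1.38 for Skil. Inhbb rests on 16 counts in MTCH2 F/F EpiLCs. The genes were chosen with earlier results known, so the share of 35.0% is given as a description.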

How the results depend on the processing

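Of the alternative values of single genes and comparisons, 852 kept their direction and their side of the threshold, 28 passed it only in the alternative, 17 no longer passed it and 24 changed sign. The count most open to the processing was that of genes differing between the genotypes in ESCs. It was 3 as reported, 5 with the replicate block, 5 with DESeq2, 1 with a filter of 1 CPM in every library, and 1 to 4 when single libraries were left out (1 without MTCH2 F/F ESC replicate 3 or MTCH2-/- ESC replicate 1 or 2). Leaving out a library gave 6 to 8 genes for priming of MTCH2-/- cells, 6 to 8 for MTCH2 F/F cells, 6 to 7 for the genotypes in EpiLCs and 7 to 8 for the difference. The filter in every library removes Inhbb by construction. The ESC calls of Skil and Smad7 were also lost with only the compared groups (adjusted p = 0.0791 and 0.0766) and with 1 CPM in every library (0.0772 and 0.071), that of Skil with a mean of 1 CPM (0.0541) and that of Smad7 without a filter (0.11). Calls gained without 1 library were those of Fst between the genotypes in EpiLCs (MTCH2-/- ESC replicate 1 or 3 or MTCH2-/- EpiLC replicate 1, adjusted p = 0.0222 to 0.0364), of Fst on priming of MTCH2-/- cells (MTCH2-/- ESC replicate 1, 0.0391) and in the difference (MTCH2-/- ESC replicate 3, 0.0404), of Tdgf1 between the genotypes in EpiLCs (MTCH2-/- EpiLC replicate 3, 0.0159) and of Lefty2 on priming of MTCH2 F/F cells (MTCH2-/- ESC replicate 3, 0.0477). For Inhbb they were priming of MTCH2-/- cells (MTCH2-/- ESC replicate 1, MTCH2-/- EpiLC replicate 3 or MTCH2 F/F EpiLC replicate 3, 0.013 to 0.0473) and the genotypes in ESCs (MTCH2-/- ESC replicate 1, MTCH2-/- EpiLC replicate 1 or MTCH2 F/F EpiLC replicate 3, 0.0105 to 0.0471). With only the compared groups, calls were gained for Lefty2 on priming of MTCH2 F/F cells (0.0413), and between genotypes for Fst in EpiLCs (0.0135) and Inhbb in ESCs (0.0218). DESeq2 gained those of Lefty2 (0.0278) and Inhbb (0.03) in ESCs. The filter of 1 CPM in every library gained those of Tdgf1 (0.0333) and Fst (0.0442) in EpiLCs, and a mean of 1 CPM that of Inhbb in ESCs (0.0492). Signs turned in these alternatives only for changes that did not pass. For Acvr2b on priming of MTCH2-/- cells (−0.01) the value was 0.01 with DESeq2's size factors, with DESeq2 and with only the compared groups, and −0.06 to 0.10 without single libraries. For Lefty1 between the genotypes in EpiLCs (0.02) it was −0.11 with the replicate block, −0.00144 with DESeq2 and −0.01 without a filter, and −0.76 to 0.43 without single libraries. Without single libraries it was −1.17 to 0.24 for Lefty1 and −0.26 to 0.10 for Fst between the genotypes in ESCs, and −0.42 to 1.19 for the difference in response of Lefty1. The share of Lefty1 then differed by 7.14 to 12.9 percentage points on priming of MTCH2-/- cells, 57.0 to 61.7 of MTCH2 F/F cells, −48.0 to −41.9 between the genotypes in EpiLCs and 2.19 to 6.81 in ESCs. Except in the values with the block printed beside results, the replicate block changed no call. Depth limits Inhbb in MTCH2 F/F EpiLCs (16 counts).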
